A study of Homo sapiens with 5 samples.

Results

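Endoglin, encoded by ENG, was examined together with 8 other genes of the transforming growth factor-β (TGF-β) pathway in HT1080 cells, a human fibrosarcoma line, grown in 3D collagen. The members were the ligands TGFB1 and TGFB2, the receptors ENG, TGFBR1 and TGFBR2, the signal carriers SMAD2 and SMAD3, the inhibitor SMAD7 and the target gene TGFBI. These 9 of the 27189 genes listed were chosen by name with their measured levels in these libraries already known, so their differences are given as descriptions without a test. All 9 passed the filter of at least 1 TPM (transcripts per 1000000, corrected for length) in at least 1 library, as did 21163 genes in all, but TGFB2 passed it through the high-density library alone.

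The study compared cells at low and high density with low-density cells given interleukins, to ask which transcripts accompany density-dependent migration. All cells were HT1080, embedded for 24 h in type I collagen at 2 mg per ml, and each condition was sequenced as 1 bulk RNA library from 1 experiment. LD held 10 cells per cubic mm with no added cytokine, and HD held 50 cells per cubic mm. The libraries named IL-6, IL-8 and RM held 10 cells per cubic mm with recombinant IL-6 alone, with recombinant IL-8 alone, or with both in the ratio 5 to 2, at the levels found in high-density cultures. In bulk RNA, a smaller number of cells making a transcript and less of it per cell cannot be told apart.

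TGF-β ligands bind a type II receptor (TGFBR2), which activates a type I receptor (TGFBR1). The type I receptor phosphorylates SMAD2 and SMAD3, which enter the nucleus with SMAD4, and SMAD7, itself a target gene, feeds back on the receptors. Endoglin (CD105) is an accessory receptor best known from endothelial cells, where it works with the type I receptor ALK1 (ACVRL1) and the SMAD1, SMAD5 and SMAD9 branch.

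The bases upstream of 3 members are shown because the text turns on their levels, ENG in RM and the 2 ligands in HD. They come from RefSeq (GRCh38.p14) and run 5′ to 3′ on the strand of the gene. Capitals mark GGGCGG, the GC box, and CAGAC, the core of the SMAD-binding element, on either strand. The stretch for ENG (chr9:127854757-127854908, minus strand) is the part of the window that lies outside the gene as GENCODE 29 places it, and those for TGFB1 (chr19:41353923-41354172, minus strand) and TGFB2 (chr1:218345086-218345335, plus strand) are the full 250 bases before the RefSeq start.
ENG: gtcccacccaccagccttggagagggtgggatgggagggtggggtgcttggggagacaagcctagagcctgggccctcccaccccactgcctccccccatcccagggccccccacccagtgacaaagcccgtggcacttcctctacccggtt
TGFB1: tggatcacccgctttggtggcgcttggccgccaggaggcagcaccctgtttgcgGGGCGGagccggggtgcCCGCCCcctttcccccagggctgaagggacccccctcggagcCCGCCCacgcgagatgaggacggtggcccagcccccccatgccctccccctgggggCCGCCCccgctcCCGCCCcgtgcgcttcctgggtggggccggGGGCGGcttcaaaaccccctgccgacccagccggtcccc
TGFB2: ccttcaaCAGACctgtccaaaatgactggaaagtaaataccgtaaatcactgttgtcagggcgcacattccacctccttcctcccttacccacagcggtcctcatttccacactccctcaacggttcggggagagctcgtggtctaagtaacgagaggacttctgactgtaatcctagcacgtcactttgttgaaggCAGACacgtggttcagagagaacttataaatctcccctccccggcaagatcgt

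The matches did not overlap each other. The TGFB1 window held 6 GC boxes and no CAGAC, and its GC content was 76.8%. The TGFB2 window held 2 CAGAC and no GC box, with a GC content of 50.4%. The ENG stretch held none of the 3 motifs searched, which included TTCNNNGAA, the core of a STAT site, on both strands, and its GC content was 68.4%. Of 35116 windows of 250 bases in the same table, 42.6% held GGGCGG, 38.0% held CAGAC and 6.57% held TTCNNNGAA, and the median GC content was 58.0%. Over all members, 1 of 5 SMAD3 windows held TTCNNNGAA and no window of the other 8 genes did. These are matches of letters and not measured binding, and a missing match says only that the letters are not in the window.

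The libraries differed in depth. The 4 low-density libraries held 5096134 to 7118545 reads and HD held 926376. The transcript RNA5-8S5 took 76.9% to 79.6% of reads at low density and 51.5% in HD, so the reads left for other genes were 1100967 to 1645539 and 449661. A count of 3 reads, the upper limit that a count of 0 allows, corresponded to 0.421 to 0.589 CPM (reads per 1000000) at low density and to 3.24 CPM in HD. HD stood apart in its makeup too, since 4113 (42.6%) of the 9665 genes without a read in all 4 low-density libraries had a read there. Over the 21163 genes tested, the median difference of HD from LD was 1.86 in log2(TPM + 1), here called the all-gene median. HD differences are therefore also given after subtracting 1.86. The value depends on the filter, being 0.77 over the 27189 genes listed and -0.30 when every library had to reach 1 TPM. Lists of 5 values run in the order LD, IL-6, IL-8, then RM and HD. Differences below are in log2(TPM + 1), and a member is counted as higher or lower where 2 libraries differed by at least 1 such unit. This scale understates the change of genes at low levels. CPM is over all reads, RNA5-8S5 included, and HD ratios are therefore also given over the other reads, a total chosen after seeing the data. Intervals are 95% Wilson intervals for CPM and exact 95% intervals for ratios of CPM, and they cover counting error only.

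TGFB1 was the most abundant member at low density and was lowest in HD, where TGFB2 was nearly as high. TGFB1, the most widely expressed TGF-β ligand, had 1295 reads in LD, 997 with IL-6, 686 with IL-8, 855 in RM and 35 in HD. These corresponded to 428, 479, 304, 292 and 68.0 TPM. LD stood at 182 CPM (172 to 192) and IL-6 at 196 CPM (184 to 208), a ratio of 1.08 (0.989 to 1.17), and over the reads outside RNA5-8S5 the ratio was 1.15 (1.06 to 1.25). IL-8 and RM were both at 125 CPM, each 0.687 times LD, with intervals of 0.625 to 0.754 and 0.630 to 0.750. HD was lowest at 37.8 CPM (27.2 to 52.5), and LD exceeded it 4.82-fold (3.44 to 6.94), or 10.1-fold (7.23 to 14.6) over the reads outside RNA5-8S5. The difference of HD from LD was -2.64, or -4.50 after subtracting the median, while those of IL-8 and RM were -0.49 and -0.55 and did not reach 1 unit. The RM difference changed sign, to 0.18, when libraries were scaled by median ratios. TGFB1 lies on chr19:41301587-41353911 (GRCh38, minus strand), and 6.64% of its exon bases are shared with HNRNPUL1 on the opposite strand, whose 859, 758, 668, 938 and 55 reads cannot be separated from TGFB1 in that stretch if strand was not used in counting.

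TGFB2, a ligand that needs the coreceptor betaglycan for strong binding to TGFBR2, had 8 reads in LD, 8 with IL-6, 5 with IL-8, 2 in RM and 133 in HD. Its level was 0.73, 0.96, 0.68, 0.17 and 64.7 TPM. The 4 low-density libraries lay between 0.29 and 1.57 CPM. Their ratios to LD did not separate from 1, while IL-6 exceeded RM 5.37-fold (1.07 to 51.9) on 8 reads against 2. HD stood at 144 CPM (121 to 170), above every low-density library, and its ratio to LD was 128 (63.0 to 302), or 60.8 (30.0 to 144) over the reads outside RNA5-8S5. The difference was 5.25, or 3.39 after subtracting the median, and it ranged from 3.39 to 6.29 over the 7 alternative settings. Of all genes tested, 61.9% were higher in HD by 1 unit. TGFB2 lies on chr1:218346235-218444619 (GRCh38, plus strand), and 26.6% of its exon bases are shared with TGFB2-OT1 on the same strand, which was not analysed here.

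ENG was near the limit of detection in every library but RM. It had 4 reads in LD, 0 with IL-6, 3 with IL-8, 48 in RM and 0 in HD, or 1.39, 0, 1.11, 18.9 and 0 TPM. RM stood at 7.02 CPM (5.30 to 9.31), above the upper bounds of LD (1.45), IL-6 (0.754), IL-8 (1.61) and HD (4.15). No order among the other 4 libraries was detectable, since their intervals overlapped. RM exceeded LD 12.5-fold (4.57 to 47.7) and IL-8 12.8-fold (4.14 to 64.5). Against a floor of 3 reads set per library, with the counting error of RM left out, ENG in RM was at least 11.9-fold higher than in IL-6 and at least 2.17-fold higher than in HD. The difference from LD was 3.06, and it stayed above 1 unit under all 8 alternative settings, from 1.90 to 5.01. These include subtracting the all-gene median, which was 0 in RM and so left the difference as it was. The difference was 4.31 from IL-6 and 3.23 from IL-8. In RM, ENG was at or above 84.7% of the genes tested, against 49.0% in LD.

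ENG counted as lower in IL-6 and in HD, by 1.26 in both, but these entries rest on 4 reads against 0. The LD level of 0.56 CPM lies at or below the floors of 0.589 CPM in IL-6 and 3.24 CPM in HD, so a difference from LD was not detectable at this depth. ENG lies on chr9:127815012-127854756 (GRCh38, minus strand), where 7.95% of its exon bases are shared with an antisense gene that was not analysed here. Of the 21163 genes tested, 388 (1.83%) were higher in RM than in each of the other 4 libraries by at least 1 unit, and 22 (0.104%) by at least the 3.06 of ENG. ENG was known to show this pattern when it was chosen, so its place among these genes is a description.

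The signalling receptors differed less than their coreceptor. TGFBR1, the type I receptor kinase, had 24, 5, 9, 20 and 4 reads, or 2.58, 0.82, 1.36, 2.33 and 2.66 TPM. Its differences from LD ran from -0.98 in IL-6 to 0.04 in HD, and none reached 1 unit. On reads alone LD exceeded IL-6 3.44-fold (1.29 to 11.5), and the IL-6 difference passed 1 unit with a pseudocount of 0.1, with RNA5-8S5 left out of the scaling, in CPM and with reads drawn down. TGFBR2, the ligand-binding type II receptor, had 66, 38, 39, 97 and 8 reads, or 10.0, 8.47, 10.9, 15.3 and 14.3 TPM. RM was its highest library in CPM, at 14.2 (11.6 to 17.3) against 9.27 (7.29 to 11.8) in LD, a ratio of 1.53 (1.11 to 2.12). The difference was 0.56 and reached 1.25 with median-ratio scaling. In HD, on 8 reads, TGFBR2 stood at 0.931 times LD in CPM (0.386 to 1.94). Over the reads outside RNA5-8S5 it stood at 0.444 times LD (0.184 to 0.926). The HD difference was 0.47, or -1.40 after subtracting the median. TGFBR1 lies on chr9:99104038-99154192 and TGFBR2 on chr3:30606502-30694142, both on the plus strand of GRCh38.

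**Figure D1:**
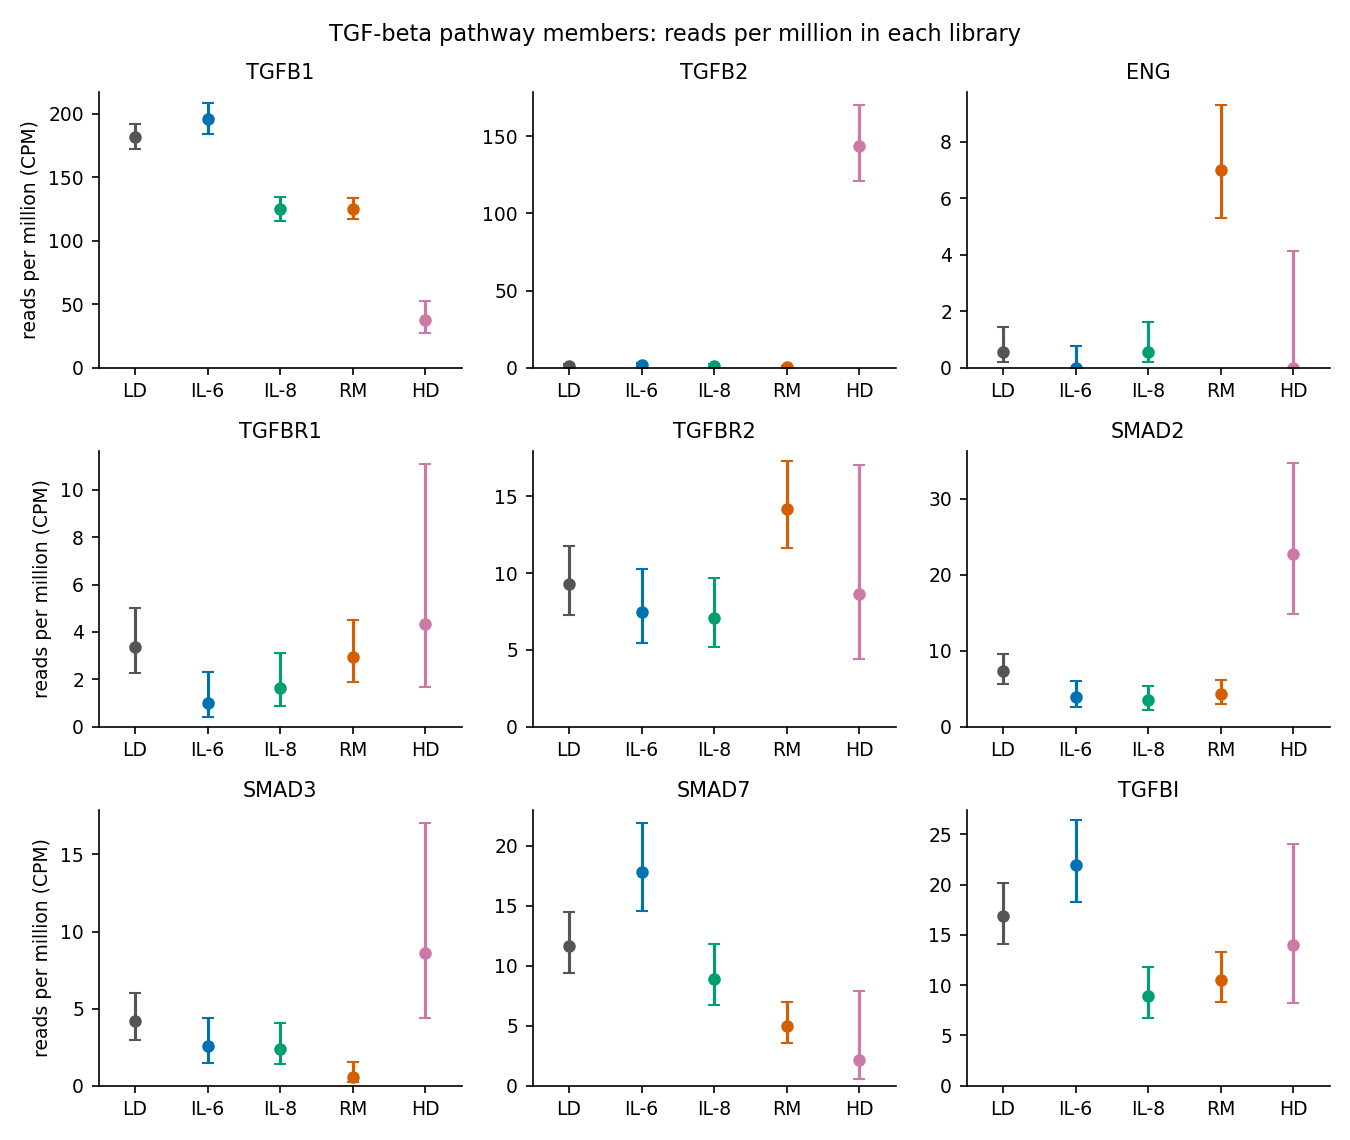
CPM (y axis) of the 9 members in the 5 libraries (x axis), with points for the value and bars for the 95% Wilson interval; each panel has its own linear scale from 0. ENG stood at 7.02 CPM in RM with its interval above those of the other libraries, TGFB2 at 144 CPM in HD, and TGFB1 at its lowest, 37.8 CPM, in HD.

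SMAD3 and SMAD2, which carry the TGF-β signal, were both lower in RM than in LD by at least 1 unit of log2(TPM + 1), and SMAD2 was so with each cytokine. SMAD3, the receptor-activated SMAD that binds DNA directly, had 30, 13, 13, 4 and 8 reads, or 3.51, 2.17, 2.10, 0.47 and 4.96 TPM. RM was its lowest library at 0.58 CPM (0.227 to 1.50), and LD exceeded it 7.20-fold (2.54 to 28.1). The difference was -1.62 from LD, -1.11 from IL-6 and -1.07 from IL-8. Over the same 8 settings as for ENG, the difference from LD ran from -3.60 to -0.64, and it fell short of 1 unit with a pseudocount of 5. IL-6 and IL-8 lay between LD and RM, with intervals that overlapped that of LD.

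SMAD2, which like SMAD3 is phosphorylated by the type I receptor, had 52, 20, 19, 29 and 21 reads, or 8.24, 1.94, 2.91, 2.98 and 9.78 TPM. All 3 cytokine libraries lay below LD, by 1.65 with IL-6, 1.24 with IL-8 and 1.21 in RM. In reads alone LD exceeded them 1.86-fold (1.09 to 3.29), 2.11-fold (1.23 to 3.78) and 1.72-fold (1.07 to 2.81), which on the log2(CPM + 1) scale gave -0.75, -0.90 and -0.66. The SMAD2 entries thus passed 1 unit in TPM but not in CPM, and over the reads outside RNA5-8S5 the ratio of LD to RM, 1.56 (0.974 to 2.55), did not separate from 1. The TPM given per CPM for SMAD2 ran from 0.43 in HD to 1.13 in LD, a 2.61-fold range against 1.32 to 1.67 for the other 8 members. HD had the highest SMAD2 CPM, at 22.7 (14.8 to 34.7), and a difference of 0.22 in log2(TPM + 1) and of 1.51 in log2(CPM + 1), each below the median of all genes on its scale. Its ratio to LD was 3.10 (1.78 to 5.24) in CPM and 1.48 (0.846 to 2.50) over the reads outside RNA5-8S5.

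SMAD7, the inhibitory SMAD, had 83, 91, 49, 34 and 2 reads, or 20.7, 30.5, 15.3, 10.5 and 2.74 TPM. IL-6 was highest, at 1.53 times the CPM of LD (1.12 to 2.09), and RM was the lowest of the low-density libraries. LD exceeded RM 2.35-fold (1.56 to 3.61) and IL-6 exceeded RM 3.59-fold (2.40 to 5.49). In log2(TPM + 1), SMAD7 differed from LD by 0.54 with IL-6, -0.41 with IL-8 and -0.92 in RM, and RM lay 1.46 below IL-6. With median-ratio scaling SMAD7 differed from LD by -0.24 in RM. In HD it had 2 reads and LD exceeded it 5.40-fold (1.45 to 45.3), or 11.3-fold (3.04 to 95.2) over the reads outside RNA5-8S5, with a difference of -2.54, or -4.40 after subtracting the median. SMAD2 lies on chr18:47808957-47931146 and SMAD7 on chr18:48919853-48952052, both on the minus strand, and SMAD3 on chr15:67063763-67195195 (GRCh38, plus strand).

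TGFBI, an extracellular matrix protein named for its induction by TGF-β, had 120, 112, 49, 72 and 13 reads, or 69.9, 87.2, 31.3, 32.5 and 39.3 TPM. IL-8 and RM lay below LD by 1.14 and 1.08, and RM lay 1.40 below IL-6. In reads LD exceeded IL-8 1.89-fold (1.34 to 2.69) and RM 1.60-fold (1.19 to 2.18), which in log2(CPM + 1) was 0.85 and 0.63 and so short of 1 unit. IL-6 stood at 1.30 times LD, with an interval from 0.999 to 1.70, and at 1.40 times (1.07 to 1.82) over the reads outside RNA5-8S5. HD stood at 0.832 times LD in CPM (0.431 to 1.48) and at 0.396 times (0.205 to 0.704) over those other reads. The HD difference was -0.82, or -2.68 after subtracting the median. TGFBI was the most abundant member after TGFB1 at low density, and lies on chr5:136028895-136063818 (GRCh38, plus strand).

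Counted over the 9 members, IL-6 gave 0 higher and 2 lower (ENG and SMAD2), where 9.84% and 7.47% of all genes tested were higher and lower. IL-8 gave 0 higher and 2 lower (SMAD2 and TGFBI), where the shares were 7.99% and 16.4%. RM gave 1 higher (ENG) and 3 lower (SMAD2, SMAD3 and TGFBI), where the shares were 6.44% and 20.4%. HD gave 1 higher (TGFB2) and 3 lower (TGFB1, ENG and SMAD7), where the shares were 61.9% and 17.9%. With median-ratio scaling the shares turned to 12.1% and 10.7% in IL-8 and to 12.9% and 11.4% in RM. Then no member passed in IL-8, while in RM ENG and TGFBR2 were higher and SMAD3 was lower. After subtracting the median of 1.86, TGFB2 was higher in HD and the other 8 members were lower, against 33.4% and 36.9% of all genes. This count depends on which genes give the median. Relative to the median of genes with at least 10 reads in LD or HD, TGFBR1, TGFBR2, SMAD2 and SMAD3 differed by -0.77, -0.33, -0.58 and -0.40, within 1 unit. Against IL-6, RM gave 1 higher (ENG) and 3 lower (SMAD3, SMAD7 and TGFBI), with shares of 6.34% and 22.7%, and against IL-8 it gave 1 higher (ENG) and 1 lower (SMAD3), with shares of 9.87% and 14.9%. These comparisons share the LD or the RM library, and each is read on its own.

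Genes with at least 10 reads in one of the compared libraries had larger shares past 1 unit than all genes with IL-6, with IL-8 and in RM, and in HD a smaller share higher and a larger share lower. Of such genes 10.5% were higher and 10.7% lower in IL-6, 11.1% and 26.9% in IL-8, 10.1% and 34.9% in RM, and 48.0% and 26.4% in HD. Their median difference from LD was -0.03 with IL-6, -0.43 with IL-8, -0.62 for RM and 0.80 for HD. The members had medians of -0.22, -0.49, -0.56 and 0.04. Against the well-counted median in RM, ENG lay 3.68 above it and TGFBR2 1.18 above, and TGFB1 differed by 0.07. SMAD3, SMAD2 and TGFBI differed from it by -0.996, -0.59 and -0.46, so no member counted as lower in RM lay 1 unit below it. In IL-8, SMAD2 and TGFBI lay below that median by 0.81 and 0.70, within 1 unit of it.

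**Figure D2:**
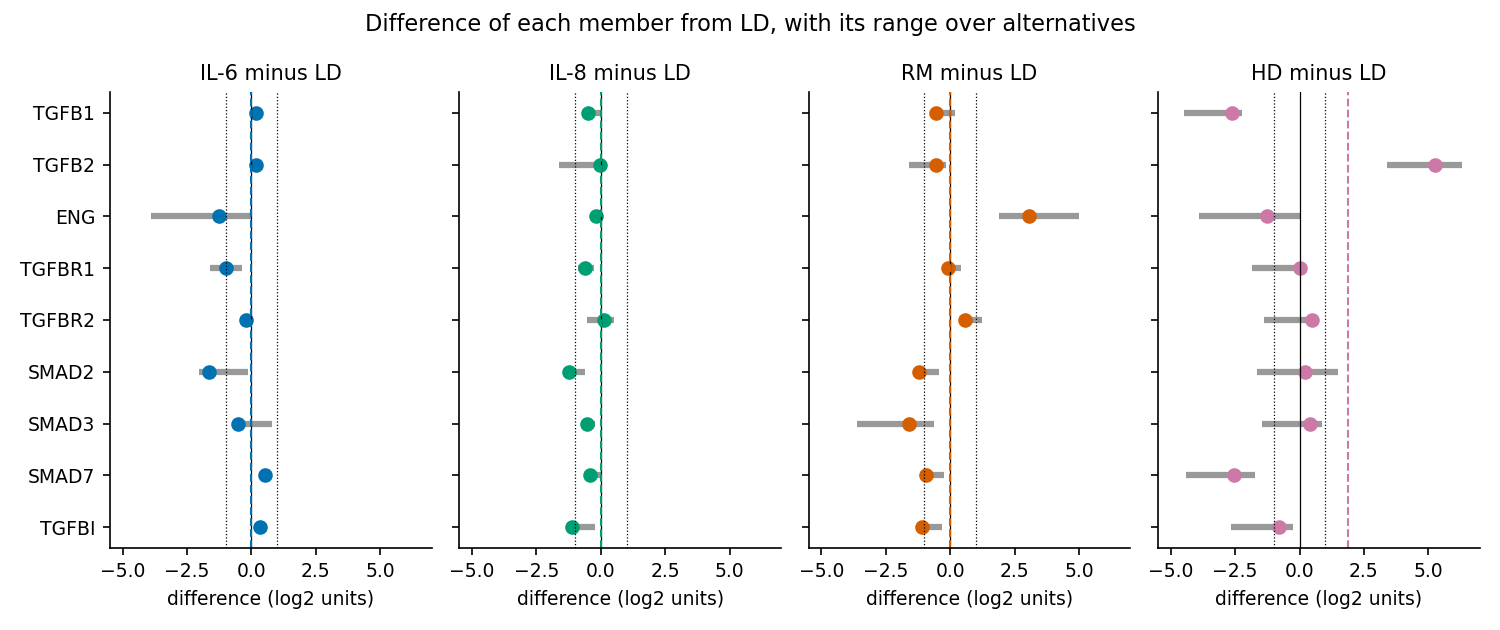
Difference of each member from LD in log2(TPM + 1) (x axis, log2 units) in IL-6, IL-8, RM and HD; dots are the reported values, grey bars the range over the alternative settings, dotted lines 1 unit either way and dashed lines the median of all genes tested. ENG in RM stayed between 1.90 and 5.01, and TGFB1, TGFB2 and SMAD7 in HD kept their direction.

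The wider pathway was described from 6 lists with 93 genes in the files, of which 87 passed the filter. IL-6 gave 5 higher and 5 lower (5.75% each), IL-8 gave 4 higher (4.60%) and 14 lower (16.1%), RM gave 4 higher (4.60%) and 20 lower (23.0%), and HD gave 26 higher (29.9%) and 37 lower (42.5%). The medians of the 87 genes were 0, -0.32, -0.44 and -0.58. In IL-8 and RM these lower shares lay near those of all genes, while in HD more pathway genes were lower and fewer were higher than among all genes. Nothing particular to the lists is read from these counts.

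The 4 list genes higher in RM all belonged to the list of other SMADs and partners, of which 9 passed and 1 was lower. Thus 44.4% of the list was higher against 6.44% of all genes and 10.1% of well-counted genes. The lists were chosen with earlier results of these data known, so this share is a description. SMAD1, a receptor-activated SMAD of the bone morphogenetic protein (BMP) branch, had 29, 13, 2, 153 and 2 reads, and differed by 2.36 in RM and -2.19 in IL-8. SMAD9, of the same branch, had 18, 16, 12, 76 and 10 reads and a difference of 1.77 in RM. SMAD5, the remaining SMAD of that branch, went the other way in RM. It had 81, 62, 48, 43 and 22 reads and a difference of -0.74, short of 1 unit. FOXH1, a DNA-binding partner of SMAD2, had 4, 0, 0, 55 and 0 reads and a difference of 3.28. This is close to the pattern of ENG in reads, with RM above the upper bound of every other library. CREBBP, a histone acetyltransferase that works with SMADs, had 202, 144, 118, 425 and 28 reads and a difference of 1.07. SMAD4, the common partner, had 23, 44, 6, 18 and 11 reads and was higher in IL-6 by 1.62. ZFYVE9, an anchor that presents SMAD2 and SMAD3 to the receptor, was the gene lower in RM, with 15 reads in LD and 2 in RM.

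Among other receptors, 9 genes passed, and ACVRL1, the type I receptor that pairs with endoglin, was lower in each cytokine library. It had 37 reads in LD, 2 with IL-6, 1 with IL-8, 0 in RM and 19 in HD, with differences of -2.46, -2.71 and -3.05 in the cytokine libraries. RM was therefore the library with the highest ENG and with no ACVRL1 read. ACVR1, another type I receptor, was the other gene lower in RM, with 22 reads in LD and 6 in RM. The endoglin ligands GDF2 and BMP10, named after their values were seen, were all but absent from the reads: GDF2 had 3 in HD and 0 elsewhere, and BMP10 had 0 in each library.

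**Figure D3:**
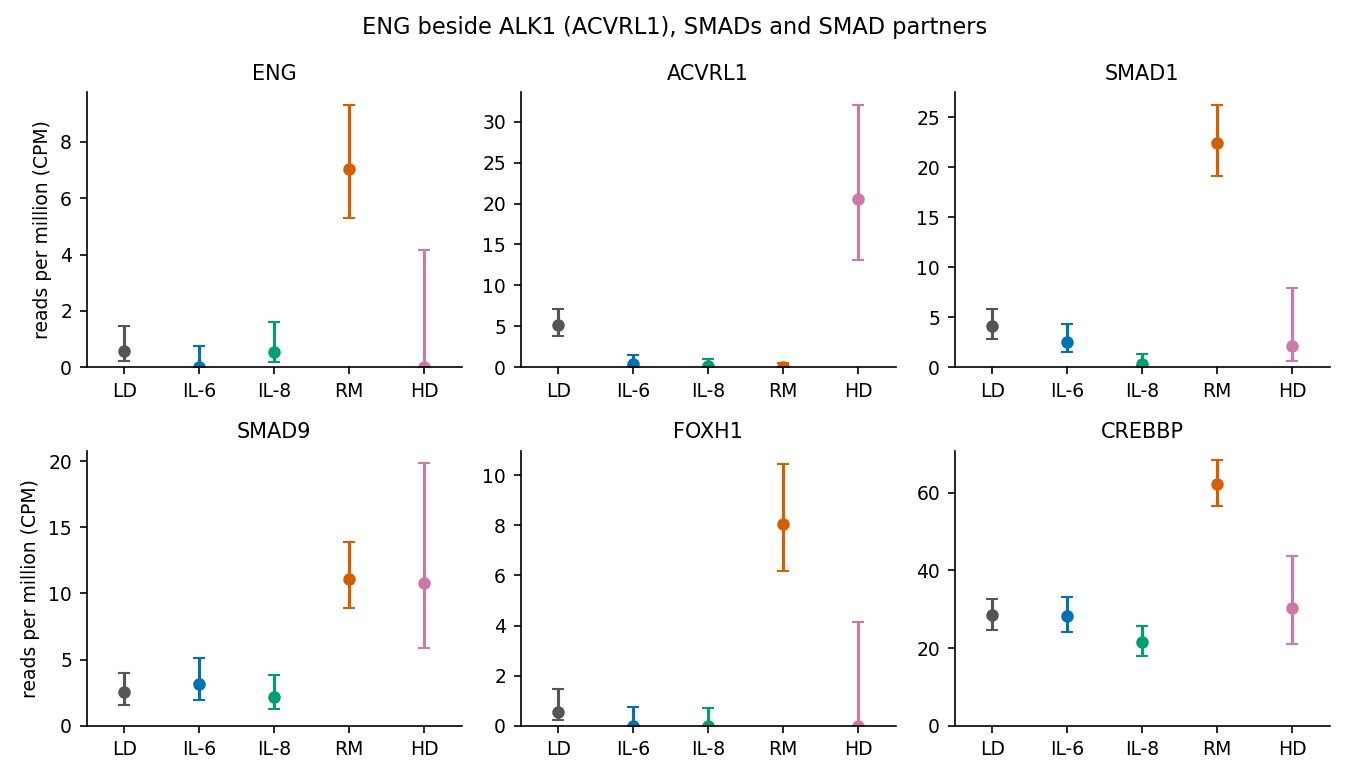
CPM (y axis) with 95% Wilson intervals of ENG, its partner receptor ACVRL1 and 4 SMADs and SMAD partners in the 5 libraries (x axis), on linear scales from 0. SMAD5, which was not higher in RM, is not drawn. ENG, SMAD1, FOXH1 and CREBBP were highest in RM, where ACVRL1 had 0 reads. SMAD9 stood at 11.1 CPM in RM and, on 10 reads, at 10.8 CPM (5.86 to 19.9) in HD. In TPM the 2 values were 10.1 and 7.49.

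Genes that store and activate the ligands gave 0 higher and 4 lower of 14 in RM (28.6% lower, against 20.4% of all genes) and 0 of 14 past 1 unit in IL-6 and in IL-8. Of the 11 with at least 10 reads in LD or RM, 4 were lower in RM, against 34.9% of well-counted genes. LTBP2 and LTBP4, which tether latent TGF-β to the matrix, had 289 and 136 reads in LD and 116 and 45 in RM, with differences of -1.20 and -1.21. THBS1 and MMP14, a matrix protein and a membrane protease that can free the ligand, had 203 and 1168 reads in LD and 70 and 410 in RM, with differences of -1.49 and -1.45. FURIN, which cleaves the TGF-β precursor, had 555, 438, 618, 726 and 15 reads, and differed by 0.43 in RM and -2.66 in HD. In HD, 3 of the 14 were higher (21.4%) and 7 lower (50.0%), against 61.9% and 17.9% of all genes. Of the 12 with at least 10 reads in LD or HD, 1 was higher and 7 lower, against 48.0% and 26.4% of well-counted genes. The well-counted genes here include those that reach 10 reads in HD alone.

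Of 13 activin and BMP ligands, 1 was higher and 1 lower in IL-6, 2 and 2 in IL-8, 0 and 1 in RM, and 8 and 3 in HD. The shares were 7.69% each in IL-6, where 9.84% and 7.47% of all genes were higher and lower. They were 15.4% each in IL-8, against 7.99% and 16.4%. In RM 7.69% were lower, against 20.4%. In HD the shares were 61.5% and 23.1%, against 61.9% and 17.9%. Of the 5 with at least 10 reads in LD or HD, 2 were higher and 3 lower. INHBA, the activin A subunit, was the most abundant at 173 TPM in LD, with 514, 309, 147, 293 and 11 reads and a difference of -1.37 in IL-8. INHBB, the other subunit, had 17 reads in LD, 0 in each cytokine library and 26 in HD. GDF11, which signals through SMAD2 and SMAD3, had 63 reads in LD and 77 in IL-8, a difference of 1.18 in log2(TPM + 1) and 0.61 in log2(CPM + 1), and BMP4 had 13 reads in IL-8 and at most 1 elsewhere.

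Of 18 negative regulators, 7 were lower (38.9%) and 0 higher in RM, where 20.4% of all genes were lower. Of the 15 with at least 10 reads in LD or RM, 6 were lower, against 34.9% of well-counted genes. PPM1A, a phosphatase of SMAD2 and SMAD3, had 73, 19, 11, 3 and 10 reads and was lower in all 3 cytokine libraries, with differences of -1.38, -2.35 and -3.15. The ubiquitin ligase NEDD4L differed by -1.39 in RM, but by -0.47 in log2(CPM + 1), with 104 reads in LD and 70 in RM. The ubiquitin ligase SMURF1 differed by -1.31 in RM, the receptor-binding inhibitor STRAP by -1.69, and the ligand traps FST and NOG by -1.91 and -2.08. NOG, which binds BMPs, was higher in IL-6 by 1.05, or 0.89 in log2(CPM + 1), with 27 reads against 17 in LD. PMEPA1, a TGF-β-induced inhibitor, had 771, 551, 418, 1171 and 25 reads and a difference of 0.68 in RM.

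Of 24 target genes, RM gave 0 higher and 5 lower (20.8%), a share near the 20.4% of all genes. All 5 were among the 22 with at least 10 reads in LD or RM, a smaller share than the 34.9% of well-counted genes. The 5 were TAGLN, ACTA2, CTGF, COL1A1 and ZEB1. TAGLN and ACTA2, which encode contractile proteins, had 1258 and 59 reads in LD and 377 and 18 in RM, with differences of -1.68 and -1.76. CTGF, a matricellular protein, differed by -1.46, COL1A1, a fibrillar collagen chain, by -1.24, and ZEB1, a repressor of epithelial genes, by -1.24. In IL-8, 2 were higher (8.33%) and 5 lower (20.8%), against 7.99% and 16.4% of all genes. ACTA2 and COL1A2 were the higher genes, with 136 and 151 reads against 59 and 42 in LD, while COL1A1 (-1.36), SNAI1 (-2.07), ID2 (-2.40) and MYC (-2.86) were among the lower. In IL-6, 2 were higher (IGFBP3 and COL5A1) and 1 lower (ID2), or 8.33% and 4.17%, against 9.84% and 7.47% of all genes. In HD, 3 were higher and 17 lower (70.8%, against 17.9% of all genes), among them JUNB with 586 reads in LD and 4 in HD, and TAGLN, with 21 reads in HD. Of the 22 target genes with at least 10 reads in LD or HD, 17 were lower, against 26.4% of well-counted genes. That 26.4% also takes in genes that reach 10 reads in HD alone. Under the filter that asks for 1 TPM in each library, 36.2% were lower in HD. Of the mesenchymal markers described below, 6 of the 6 with 10 reads in LD or HD were lower, and of the other receptors 0 of 5. The markers share FN1 with the target list. Whether the share is particular to target genes was not tested.

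**Figure D4:**
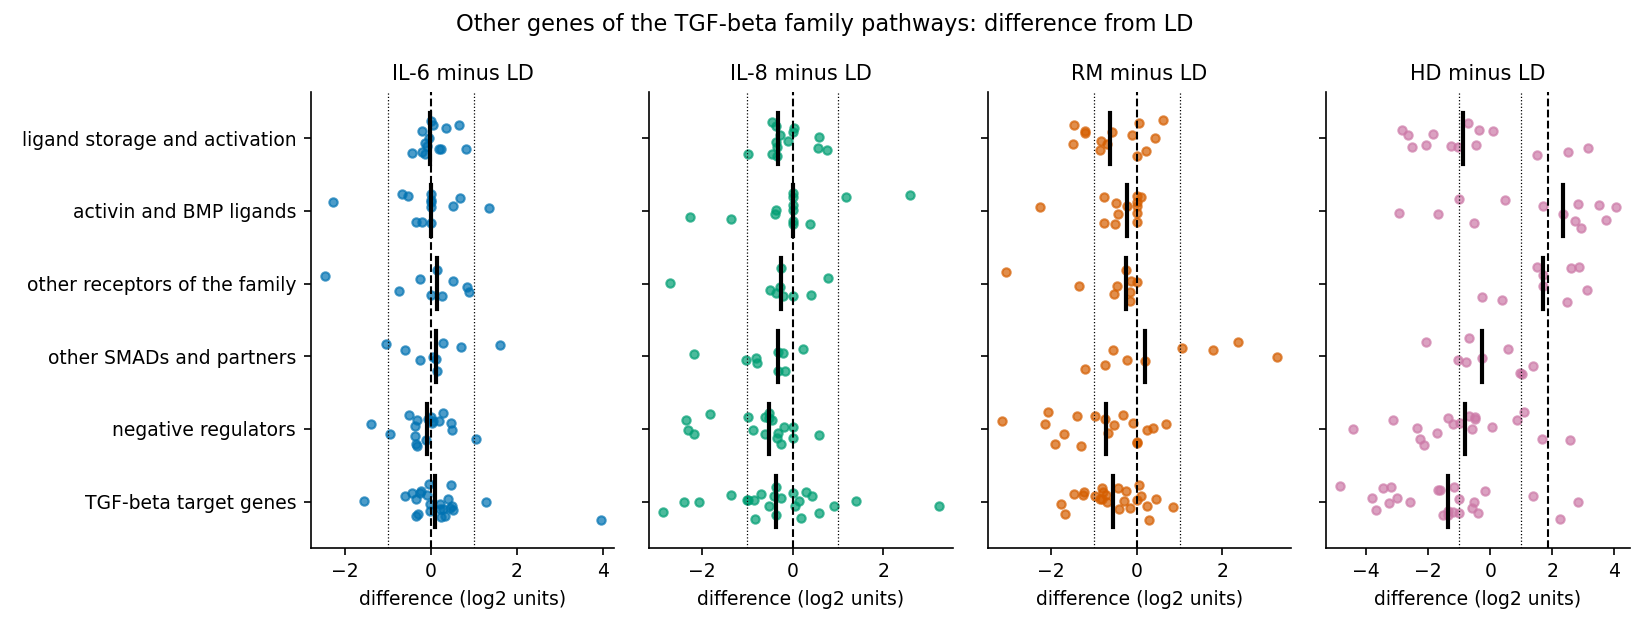
Difference from LD in log2(TPM + 1) (x axis, log2 units) for the genes of 6 pathway lists that passed the filter (points), with the list median (black bar), the median of all genes tested (dashed) and 1 unit either way (dotted); the panels have different x scales. In RM the 4 points above 1 unit all lie in the list of other SMADs and partners, and in HD most target genes lie below the all-gene median of 1.86.

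The 5 genes closest to ENG, by Euclidean distance over the 4 differences from LD among 4420 genes with at least 10 TPM and 50 reads in LD, were DPH2 (0.93), ZC3H18 (1.40), ITGB1BP1 (1.42), MAZ (1.50) and H1F0 (1.53). DPH2, which acts in diphthamide synthesis, had 259 reads in LD, 105 with IL-6, 106 with IL-8, 1549 in RM and 15 in HD. ITGB1BP1, which binds the integrin β1 tail, had 92, 49, 72, 904 and 12 reads. The choice by distance to ENG fixes that RM is high in these genes. The ENG differences in IL-6, IL-8 and HD rest on 0, 3 and 0 reads against 4 in LD. The distances along them therefore depend on the pseudocount. ENG itself, at 1.39 TPM and 4 reads in LD, does not reach the limits set for the compared genes. FOXH1, at 4 reads in LD, was left out by them.

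Cell type markers were read beside these values. Of 8 mesenchymal markers, 6 to 8 had reads in each library, and their summed level was 4872 to 7255 TPM at low density and 981 TPM in HD, with VIM at 4590 to 10796 reads at low density and 206 in HD. NT5E was at 0 in the 4 low-density libraries and THY1 in IL-6, IL-8 and RM. Of 8 endothelial markers, 3 had reads in RM, with KDR, VWF, TEK, EMCN and CLDN5 at 0. Their summed level was 1.76 TPM on 8 reads in RM and 2.50 TPM on 11 reads in LD. It was 8.73 TPM with IL-6 and 3.05 TPM with IL-8, so a low level was shared by the 4 low-density libraries. In HD, 7 of the 8 had reads and their summed level was 115 TPM, with PECAM1 at 43 reads against 3 to 5 at low density. Of 4 blood markers, 1 or 2 had reads at low density, where CD68 carried the summed level of 145 to 166 TPM and CD14 and HBB were at 0, and all 4 had reads in HD, at 272 TPM. Of 5 epithelial markers, 3 or 4 had reads at low density, at 637 to 905 TPM, with EPCAM at 0, and all 5 had reads in HD, at 629 TPM. The part of these markers, and of the lower depth of HD, in the HD values of TGFB1, TGFB2 and SMAD7 was not tested.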

How the data were processed

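RNA was primed on poly-A, the whole cDNA pool was amplified with phi29 polymerase and libraries were made with Nextera XT. The authors deposited, for each library, a read count per gene in whole numbers and a TPM per gene. The submitters' processing notes name CASAVA 1.4, FastQC, Bowtie2 2.3.1, RSEM 1.2.25 and the builds GRCh37 and hg19. The annotation, settings and use of strand are not given in the sources used here. The deposited TPM summed to 934821 to 978521 and were rescaled to 1000000.

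Differences are in log2(TPM + 1), over genes that reached 1 TPM in any library, and 1 unit was the threshold. Counts gave CPM, intervals and floors (95%, 3 reads), which cover counting error only, since reads carried no molecular identifiers. With 1 library per condition no test was made and no replicate spread is known. The members and gene lists were chosen with earlier results of these data known. Besides the members, a listed gene could be named with at least 10 reads in a compared library and a cytokine difference of at least 1 unit, or among the 4 of highest TPM in LD or the 4 largest HD differences each way. Genes like ENG were ranked by distance over 4 differences. Positions come from GENCODE 29 (GRCh38), matched by symbol, and windows from RefSeq. Motif matches were counted on both strands, overlapping ones separately.

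Alternatives were pseudocounts of 0.1 and 5, RNA5-8S5 left out of scaling, median-ratio scaling, CPM, other filters and a threshold of 2 units. Reads outside RNA5-8S5 were also drawn down at random, in a single draw, to 449661 per library and scaled as CPM. Values were computed with pandas 2.3.3, numpy 2.4.6 and scipy 1.17.1 under Python 3.11.15 and drawn with matplotlib 3.10.9, and the code was tested on simulated data. A cell-free collagen control was not analysed here.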

Additional observations from a re-analysis of the deposited data

How the results depend on the processing

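Over the alternatives, 247 of 279 member differences moved by less than their counting interval, 32 moved further, and no member past 1 unit under the reported setting changed direction. Some of the 247 could not have moved. ENG in IL-6 and in HD, at 0 reads, had no finite interval. Subtracting the all-gene median, which was 0 in IL-6, IL-8 and RM, left the differences of those libraries as reported. SMAD2 in HD, at 0.22 as reported, was 1.51 in CPM and -1.64 after subtracting the all-gene median. No paired analysis was possible because each condition had 1 library. Leaving out a replicate was not run for the same reason. The members past 1 unit numbered 2 with IL-6, 2 with IL-8, and 4 each in RM and HD. A pseudocount of 5 gave 0 in IL-6, 1 in IL-8 (TGFBI) and 1 in RM (ENG). CPM gave 1 in IL-6, which was TGFBR1, and 0 in IL-8. Reads drawn down, a single random draw without RNA5-8S5 scaled as CPM, gave 1 in IL-6 (TGFBR1) and 1 in IL-8 (TGFB2). ENG, SMAD2 and TGFBI no longer passed in those libraries, but they did not pass there in CPM at full depth either. Median-ratio scaling gave 0 in IL-8, with or without HD among the libraries. A filter of 10 TPM kept 6 members, of which 1, 1 and 2 passed in IL-6, IL-8 and RM, and 1 TPM in all 5 libraries kept 5, of which 1, 2 and 2 passed in IL-6, RM and HD. A threshold of 2 units gave 0, 0 and 1 (ENG) in IL-6, IL-8 and RM. After subtracting the all-gene median, which depends on the filter, 9 passed in HD. That setting, median ratios without HD and ratios over reads outside RNA5-8S5 were chosen after seeing the data.

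All genes past 1 unit numbered 3663 with IL-6, 5161 with IL-8, 5679 for RM and 16876 for HD. In IL-6, IL-8 and RM they became 6791, 8388 and 8824 with a pseudocount of 0.1, 1075, 2014 and 2526 with 5, and 726, 1167 and 1503 past 2 units. CPM gave 1845 in IL-6 and 3384 in IL-8, and reads drawn down gave 6487 in IL-6. With 10 TPM required, HD gave 10951, and with 1 TPM in all 5 libraries the counts were 1239, 2402, 2959 and 5132. The cause of these shifts was not tested beyond the setting itself. ENG at 0 to 4 reads outside RM and SMAD7 at 2 reads in HD are limited by depth.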

Other observations

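Some listed genes differed between single libraries. IGFBP3, which encodes a binding protein for insulin-like growth factors, had 36 reads in IL-6, 1 in HD and 0 in LD, IL-8 and RM. COL1A2, a fibrillar collagen chain, had 151 reads in IL-8 against 28 to 42 in the other low-density libraries, while COL1A1, the chain it assembles with, had 41 reads in IL-8 against 153 in LD. BMP7 had 31 reads in HD and 3 to 9 at low density. With 1 library per condition, these values have no replicate check.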
